A study of Mus musculus with 6 samples.

Results

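Retinoic acid synthesis and reception were followed through 9 genes in clear cells of the mouse epididymis. The genes encode the retinaldehyde dehydrogenases Aldh1a1, Aldh1a2 and Aldh1a3, the carrier Crabp2, the retinoic acid receptors Rara, Rarb and Rarg, and the retinoid X receptors Rxra and Rxrb. They were taken by symbol from the complete expression table, in which they are 9 of 37578 genes, and each had exactly 1 row. Their identifiers in the files are ENSMUSG00000053279 (Aldh1a1), ENSMUSG00000013584 (Aldh1a2), ENSMUSG00000015134 (Aldh1a3), ENSMUSG00000004885 (Crabp2), ENSMUSG00000037992 (Rara), ENSMUSG00000017491 (Rarb), ENSMUSG00000001288 (Rarg), ENSMUSG00000015846 (Rxra) and ENSMUSG00000039656 (Rxrb). Clear cells secrete protons into the epididymal duct, where sperm mature. They were collected by sorting for EGFP in 2 passes from untreated transgenic mice aged 12 weeks, whose EGFP is under the ATP6V1B1 promoter, so the cells compared are those in which this promoter was active. All groups carry the transgene and are labelled alike except for the stretch of duct they came from, which was caput (next to the testis), corpus (the middle) or cauda (the far end). Each region has 2 libraries, each from 12 pooled epididymides. The comparisons ask how gene expression of clear cells varies by region.

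Retinoic acid is made from vitamin A in a pair of steps. Retinol is first oxidised to retinaldehyde by alcohol or retinol dehydrogenases, and retinaldehyde dehydrogenases of the Aldh1a family then form the acid. Crabp2 carries retinoic acid to the nucleus, where a heterodimer of a retinoic acid receptor and a retinoid X receptor regulates genes near its binding sites. Vitamin A deficiency and loss of receptor function are known to disturb the epididymal epithelium, and the duct is a long-known site of retinoid-binding proteins and retinoic acid synthesis.

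Reads assigned to genes came to between 18887128 and 24700717 per library. Levels are given as CPM, the reads of a gene relative to all reads in genes with library sizes scaled by TMM, and where genes are compared with each other as the deposited RPKM, which is also divided by gene length. Differences are log2 fold changes with their SE, from edgeR's quasi-likelihood test of 15816 genes. Calls rest on an adjusted p (Benjamini-Hochberg, over all genes tested) below 0.05. Clear cell markers were present in each library, with reads for 13 or 14 of 15 listed genes, but their summed level fell from 8230 to 8570 CPM in caput to 2410 to 2810 in corpus and 913 to 1160 in cauda. Slc26a4 had reads in caput 2 alone, and Oxgr1 at most 2 reads in any library. Markers of principal cells, the main secretory cell of the duct, summed to 11000 to 12600 CPM in caput, 70200 to 78800 in corpus and 107000 to 116000 in cauda, with reads for 13 to 15 of 15 genes and none for Adam28 in corpus. That sum follows a few abundant genes such as Crisp1: of the 15, 4 were called higher in cauda than in caput and 11 higher in caput. In these pooled samples, fewer cells of a type and less RNA per cell cannot be told apart.

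**Figure D1:**
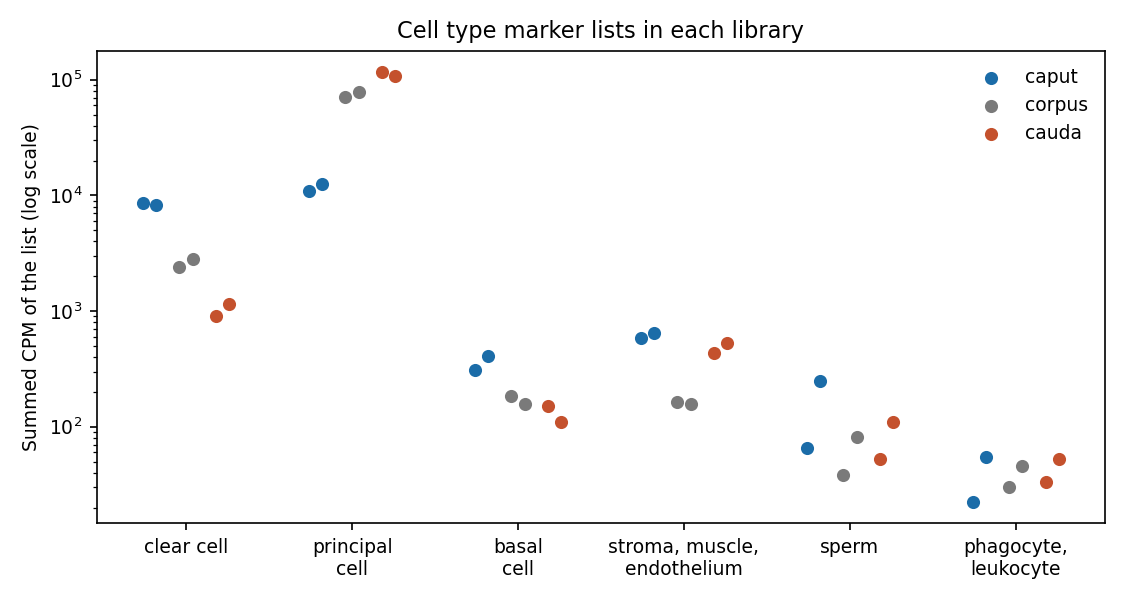
Summed CPM (log scale) of 6 lists of cell type markers in each library, with 1 point per library coloured by region. The clear cell sum falls from caput to cauda while the principal cell sum rises to between 107000 and 116000 CPM. Caput 2 holds more sperm transcripts (247 CPM) than caput 1 (65.0 CPM).

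All 9 genes passed the filter on low counts, and most of them differed between regions, as did most genes of these cells. Between caput and cauda 2 of the 9 were called higher in caput and 4 higher in cauda, against a background of 66.9% of all tested genes called in either direction (33.9% higher in caput and 33.0% higher in cauda). Their CPM did not overlap between these regions for 9 of the 9, as for 84.1% of tested genes. Between caput and corpus 4 were called higher in caput and 2 higher in corpus, where the background was 65.0% (33.2% higher in caput and 31.8% higher in corpus), and 7 did not overlap, against 83.3%. Between corpus and cauda 4 were called higher in cauda and 0 higher in corpus, where the background was 35.4% (17.3% higher in corpus and 18.0% higher in cauda), and 6 did not overlap, against 69.5%. None of the 9 was called highest in corpus, lowest in cauda or falling at both steps, patterns held by 8.55%, 9.62% and 5.46% of tested genes. The median log2 fold change of the 9 was -1.12 for caput against cauda, 0.10 for caput against corpus and -1.31 for corpus against cauda, beside 0.04, 0.04 and 0.00 over all tested genes. Without caput 2, which carried more sperm transcripts than caput 1, the median of the 9 for caput against cauda was -1.08, beside 0.03 over all tested genes. Without caput 1 it was -0.47, beside 0.04. The comparisons share their libraries, so their counts are not independent. Under library totals 4 of the 9 were called higher in caput than in cauda and 3 higher in cauda, with a median of -0.25. Of 15816 tested genes, 9501 and 2564 were. That scaling moved the median over all tested genes by 0.86, 0.59 and 0.27 in favour of the first region, and turned the share of called genes that were higher in caput than in cauda from 50.7% to 78.7%. Fold changes are therefore relative to the bulk of the genes.

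**Figure D2:**
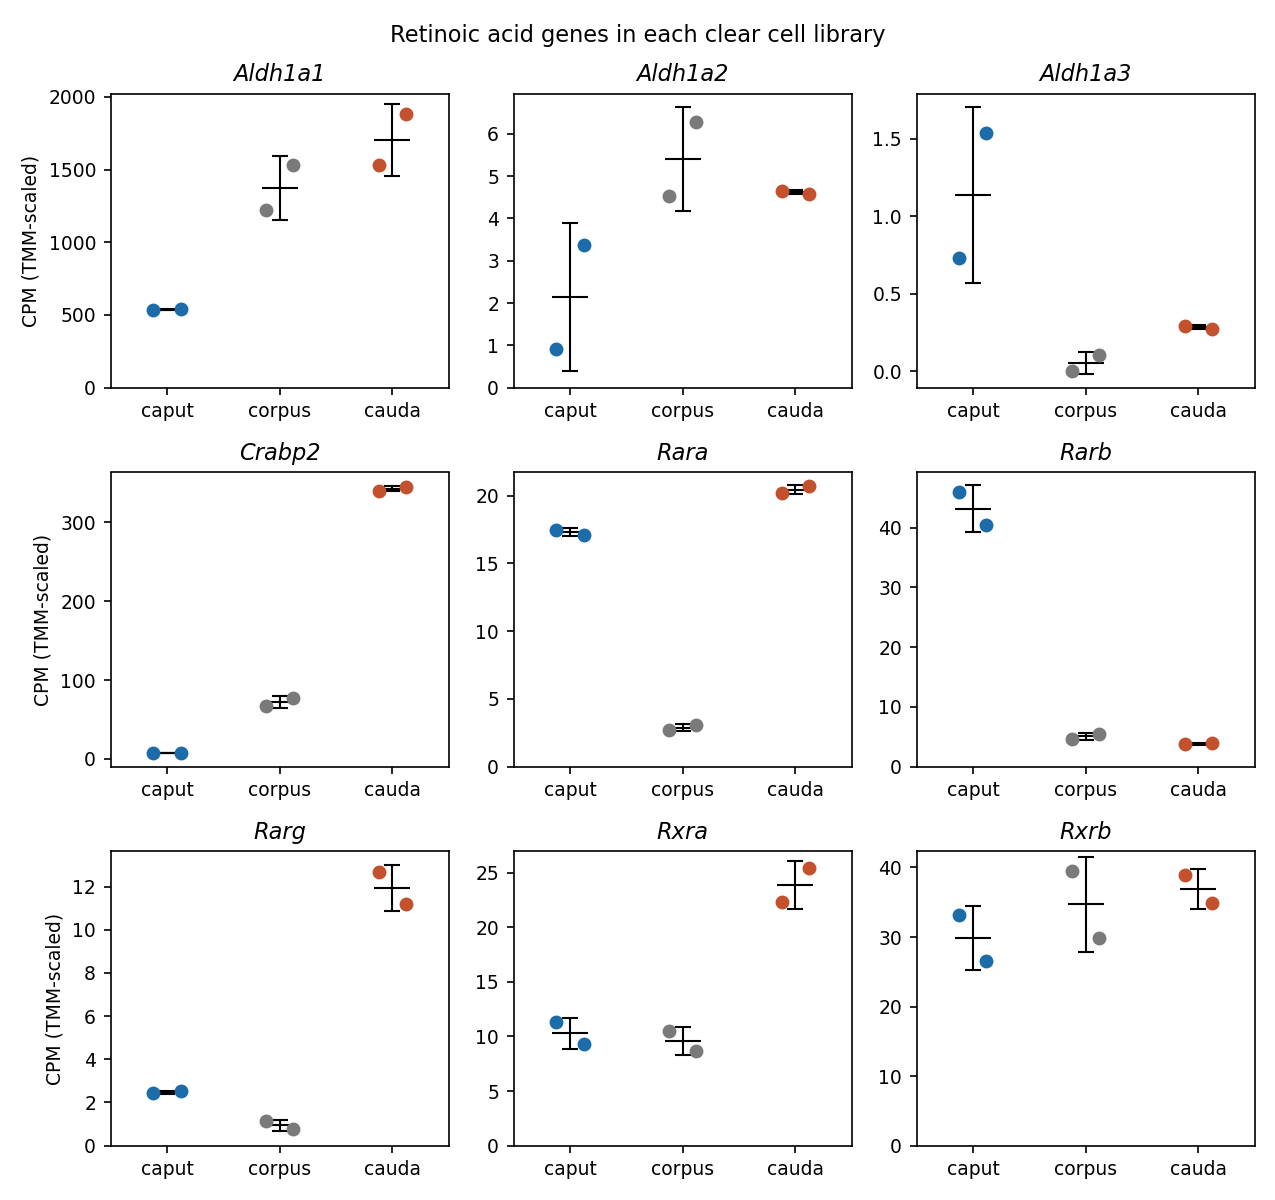
CPM of the 9 genes in each library (vertical axes in TMM-scaled CPM, starting at or just below 0), with points for the 2 libraries of a region, a horizontal bar for their mean and whiskers for the SD. Crabp2 rises stepwise to 342 CPM in cauda, Rarb is high in caput only at 43.1 CPM, and Rara is low in corpus at 2.86 CPM.

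Aldh1a1 supplied nearly all transcripts of the retinaldehyde dehydrogenases in each region and was lowest in caput. It measured 534 and 540 CPM in the caput libraries, 1220 and 1530 in the corpus libraries, and 1530 and 1880 in the cauda libraries. Both caput libraries lay below all others, while corpus 2 reached the level of cauda 1. Relative to cauda, Aldh1a1 was 3.18-fold lower in caput (log2 fold change -1.67 ± 0.13, adjusted p = 7.35e-06), and relative to corpus 2.56-fold lower (-1.36 ± 0.13, adjusted p = 2.96e-05). Corpus and cauda were not told apart (-0.31 ± 0.13, adjusted p = 0.0995, approximate 95% interval -0.72 to 0.10), although without corpus 2 the difference was called (-0.48, adjusted p = 0.0378). Per length, Aldh1a1 stood at 271 ± 1.52 RPKM in caput (SD, n = 2), 665 ± 106 in corpus and 823 ± 119 in cauda. Ranked by RPKM among genes with reads, it was number 135 of 22391 in caput, 102 of 21492 in corpus and 91 of 21665 in cauda. Its share of the summed RPKM of the 3 enzymes was 99.6% in caput, 99.6% in corpus and 99.8% in cauda.

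Aldh1a7, a close paralog of Aldh1a1, ran the same way, at 15.5 and 21.5 CPM in the caput libraries, 52.9 and 49.1 in the corpus libraries, and 109 and 109 in the cauda libraries. It was called lower in caput than in cauda (-2.57 ± 0.15, adjusted p = 6.61e-07) and than in corpus (-1.47 ± 0.14, adjusted p = 2.56e-05), and lower in corpus than in cauda (-1.10 ± 0.14, adjusted p = 0.000357). Both genes are uncertain to the extent that they share sequence: 3.06% of the 50-base words of the annotated Aldh1a1 transcripts also occur in those of Aldh1a7, and 7.49% the other way round, whereas no such word is shared with Aldh1a2 or Aldh1a3.

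Aldh1a2, the enzyme that supplies retinoic acid in much of the embryo, was scarce, and its caput libraries disagreed. It measured 0.909 CPM in caput 1 and 3.38 in caput 2, whereas the corpus libraries stood at 4.54 and 6.28 and the cauda libraries at 4.65 and 4.58. Both caput values lay below those of the other regions, but the gap between them was wide. No comparison was called: caput was -1.12 ± 0.54 against cauda (adjusted p = 0.105, approximate 95% interval -2.84 to 0.60) and -1.35 ± 0.54 against corpus (adjusted p = 0.0598), and corpus was 0.23 ± 0.53 against cauda (adjusted p = 0.777). Without caput 2 the difference from cauda became -2.34 (adjusted p = 0.000205) and that from corpus -2.57 (adjusted p = 0.000109), whereas without caput 1 they were -0.44 and -0.68 and were not called. Caput 2 also carried more sperm transcripts, with a summed 247 CPM over 8 markers against 65.0 in caput 1, and reads for 8 of 8 in both; their part in the Aldh1a2 values was not tested.

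Aldh1a3 was at the limit of detection outside caput. Its reads numbered 25 and 45 in the caput libraries, 0 and 2 in the corpus libraries, and 5 and 5 in the cauda libraries, equal to 0.733 and 1.54 CPM for caput, at most 0.101 for corpus, and 0.291 and 0.273 for cauda. The caput libraries lay above all others. Caput exceeded corpus 20.8-fold, with a 95% counting interval of 5.54 to 175 because corpus held 2 reads in all, and this difference was called (adjusted p = 0.00271). Caput exceeded cauda by 1.98 ± 0.72 (adjusted p = 0.0336), a call that was lost without caput 2 (adjusted p = 0.183), cauda 1 (0.167) or cauda 2 (0.183). The difference between corpus and cauda was not detectable at this depth (adjusted p = 0.139).

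Crabp2, the carrier that delivers retinoic acid to its receptors, rose in steps along the duct and changed more than any other of the 9 genes between caput and cauda. It measured 7.24 and 7.68 CPM in the caput libraries, 66.5 and 77.2 in the corpus libraries, and 340 and 345 in the cauda libraries. The 3 regions did not overlap, and the libraries within each lay close together. It was 45.8-fold higher in cauda than in caput (-5.52 ± 0.11, adjusted p = 1.17e-09), 9.63-fold higher in corpus than in caput (-3.27 ± 0.10, adjusted p = 2.48e-08) and 4.76-fold higher in cauda than in corpus (-2.25 ± 0.09, adjusted p = 3.09e-07). A called rise at both steps was seen in 6.87% of all tested genes, and Crabp2 was the only member among them. Its absolute change between caput and cauda was as large as or larger than that of 97.9% of tested genes. Per length it went from 5.83 ± 0.16 RPKM in caput to 53.7 ± 5.52 in corpus and 255 ± 2.83 in cauda, where it ranked number 312 of 21665 by RPKM. The summed principal cell markers rose over the same regions. Crisp1, Adam7, Spink8 and Aqp9 were called higher in cauda, with log2 fold changes for caput against cauda of -4.28, -3.11, -4.34 and -3.33. The other 11 of the 15 were called higher in caput than in cauda. Some of these, such as Lcn8 and Lcn9, were nearly absent from cauda (means of 0.589 and 0.285 CPM). Others, such as Gpx5, were not (606 CPM). A count of genes therefore does not measure how much principal cell RNA a library held. The clear cell markers fell, and the part of either list in the rise of Crabp2 and Aldh1a1 was not tested.

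Crabp1, the other cellular retinoic acid-binding protein, had 2 reads in caput 2 and 0 in the remaining libraries. Fabp5, a fatty acid-binding protein that can also carry retinoic acid, measured 1.17 and 1.20 CPM in the caput libraries, 8.01 and 8.51 in the corpus libraries, and 13.4 and 12.2 in the cauda libraries. Fabp5 was called higher in cauda than in caput (-3.42 ± 0.21, adjusted p = 4.99e-07) and in corpus than in caput (-2.80 ± 0.21, adjusted p = 2.37e-06). Its smaller step from corpus to cauda (-0.63 ± 0.18, adjusted p = 0.0231) was of similar size without any single library of corpus or cauda but was then no longer called (-0.57 and -0.67 without corpus 1 and 2, adjusted p = 0.132 and 0.085, and -0.56 and -0.70 without cauda 1 and 2, adjusted p = 0.149 and 0.0736). Ppard, the nuclear receptor to which Fabp5 delivers its ligands, was lower in caput than in cauda (-1.50 ± 0.19, adjusted p = 8.32e-05) and than in corpus (-1.53 ± 0.19, adjusted p = 8.04e-05).

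The retinoic acid receptors changed in both amount and makeup. Their summed level was 17.2 ± 1.48 RPKM in caput, 2.24 ± 0.17 in corpus and 7.69 ± 0.08 in cauda (SD, n = 2), so corpus held the fewest receptor transcripts. Rarb made up 74.4% ± 1.56 of that sum in caput and 64.6% ± 2.40 in corpus, but 14.1% ± 0.71 in cauda. In cauda Rara led with 57.5% ± 1.56 and Rarg held 28.4% ± 2.33, against 2.78% ± 0.27 for Rarg in caput. These shares come from the same libraries as the tests of single genes and were not tested themselves.

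**Figure D3:**
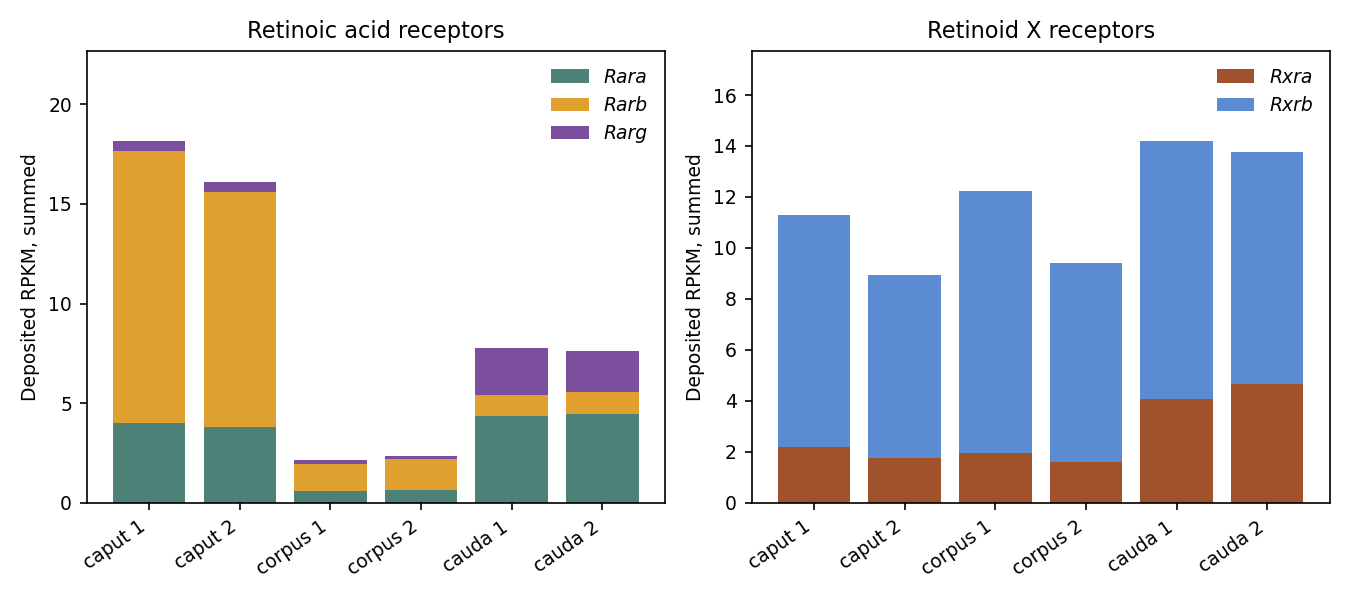
Deposited RPKM of the retinoic acid receptors (left) and of the retinoid X receptors (right), stacked within each library. Rarb fills most of the caput bars, at 74.4% of the receptor sum, and Rara and Rarg most of the cauda bars, while Rxrb is the larger part of the retinoid X receptor sum in each library.

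Rarb, the receptor gene that is itself a classical target of retinoic acid, was abundant in caput and low elsewhere. It measured 45.9 and 40.4 CPM in the caput libraries, 4.70 and 5.52 in the corpus libraries, and 3.72 and 3.93 in the cauda libraries. The caput libraries stood far above all others, and corpus lay just above cauda without overlap. Rarb was 11.3-fold higher in caput than in cauda (3.49 ± 0.16, adjusted p = 8.07e-08) and 8.41-fold higher than in corpus (3.07 ± 0.15, adjusted p = 1.98e-07), a pattern of highest in caput that 26.8% of all tested genes shared. The small difference between corpus and cauda was not called (0.42 ± 0.17, adjusted p = 0.0867, approximate 95% interval -0.12 to 0.96), but was called under library totals (0.69, adjusted p = 0.00776). In the GENCODE M21 annotation 34.1% of the 5265 exon bases of Rarb also lie in exons of Top2b on the opposite strand. The deposited length of Rarb is 3479 bases, so how much of this overlap the authors' annotation holds is not known. The counts were made without strand, so reads of any overlap counted cannot be told apart. Top2b, which was looked up because of this overlap, averaged 49.0 CPM in caput but 39.2 in corpus and 40.0 in cauda, a log2 fold change between caput and cauda of 0.29 against 3.49 for Rarb.

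The promoter of Rarb is shown because retinoic acid receptors are known to bind it at a direct repeat with a spacer of 5 bases (DR5), and that of Cyp26a1, which encodes the main enzyme degrading retinoic acid, because it was the other listed gene with such a repeat. The windows run from 250 bases before to 50 bases after a RefSeq transcription start, on build GRCm38.p6, at chr14:16575427-16575726 on the minus strand for Rarb and chr19:37697558-37697857 on the plus strand for Cyp26a1. Letters run 5′ to 3′ along the gene, and capitals mark the half-sites of the repeat. In the Cyp26a1 window the repeat is on the other strand and its half-sites read as TGAACT.
Rarb: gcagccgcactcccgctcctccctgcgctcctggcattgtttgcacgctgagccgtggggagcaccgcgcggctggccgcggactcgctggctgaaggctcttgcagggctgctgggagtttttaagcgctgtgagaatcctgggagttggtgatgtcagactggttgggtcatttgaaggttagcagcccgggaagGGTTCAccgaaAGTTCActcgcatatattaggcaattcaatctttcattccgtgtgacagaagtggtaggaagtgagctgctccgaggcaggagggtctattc
Cyp26a1: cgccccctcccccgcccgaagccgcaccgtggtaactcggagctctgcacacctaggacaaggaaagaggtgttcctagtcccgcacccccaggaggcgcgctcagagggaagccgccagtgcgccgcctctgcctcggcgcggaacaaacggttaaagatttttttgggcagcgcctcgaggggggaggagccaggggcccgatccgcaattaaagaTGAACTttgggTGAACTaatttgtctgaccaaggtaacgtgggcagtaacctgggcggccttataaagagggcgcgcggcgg

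The repeat lies at positions -53 to -37 from the start in Rarb and at -32 to -16 in Cyp26a1, counting the start base as 0. Half-sites searched were AGGTCA as well as GGGTCA, then AGTTCA as well as GGTTCA, in any pair, on both strands and in the same direction, with spacers of 5, 2 or 1 bases (DR5, DR2 and DR1). A DR5 was found in 32 of 32851 promoter windows (0.0974%), a DR2 in 0.268% and a DR1 in 0.222%. Of the 9 genes, 7 had a window (14 windows in all), and Rarb alone held a match to any of the 3 repeats. Among the 82 symbols of the pathway lists (retinoid supply and clearance, carriers and receptors, coregulators and induced genes), 61 had a window. Of the 82, Bcmo1 and Bco1 name the same gene. The only further match was a DR1 in the window of Bco1, a carotenoid-cleaving enzyme gene. A match of letters is a description and does not show that a receptor binds there in these cells. Cyp26a1 itself had 30 and 5 reads in the caput libraries, 6 and 4 in the corpus libraries, and 0 and 1 in the cauda libraries, too few to pass the filter. Caput exceeded cauda 19.6-fold for Cyp26a1, with a 95% counting interval of 3.30 to 797, and the caput libraries disagreed with each other (0.880 and 0.171 CPM).

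Rara, the most widely expressed of the 3 receptors, was depleted in corpus. It measured 17.5 and 17.1 CPM in the caput libraries, 2.69 and 3.04 in the corpus libraries, and 20.2 and 20.7 in the cauda libraries. Corpus lay below both ends of the duct in all its libraries. Rara was 6.01-fold higher in caput than in corpus (2.59 ± 0.16, adjusted p = 6.41e-07) and 7.13-fold higher in cauda than in corpus (-2.83 ± 0.16, adjusted p = 1.87e-06). The ends themselves were not told apart (-0.25 ± 0.13, adjusted p = 0.129, approximate 95% interval -0.67 to 0.18), and this value changed sign under library totals (0.61, adjusted p = 0.00205).

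Rarg, known from epithelia and skin, was also lowest in corpus but highest in cauda. It measured 2.43 and 2.53 CPM in the caput libraries, 1.12 and 0.760 in the corpus libraries, and 12.7 and 11.2 in the cauda libraries, with no overlap between regions. Rarg was 4.81-fold higher in cauda than in caput (-2.27 ± 0.24, adjusted p = 2.85e-05), 12.7-fold higher in cauda than in corpus (-3.67 ± 0.28, adjusted p = 1.25e-05) and 2.64-fold higher in caput than in corpus (1.40 ± 0.29, adjusted p = 0.00198). Only 6.10% of all tested genes were called lower in corpus than in both other regions, and Rara and Rarg were the 2 members among them. The stromal, muscle and endothelial markers had reads for 10 or 11 of 11 genes per library and a summed level that was lowest in corpus, with sums of 589 to 644 CPM in caput, 156 to 164 in corpus and 438 to 525 in cauda. Dcn, a matrix proteoglycan gene, made up most of these sums (577, 86.1 and 353 CPM), while Cdh5, a defining gene of endothelium, had no reads in caput or corpus. Of 10 tested markers, Dcn alone was called between caput and corpus, and several others had higher values in corpus, such as Acta2 (17.4 CPM in caput and 49.0 in corpus) and Col3a1 (2.60 and 7.68), without passing the test; both were named after their values were seen. Their part in the Rara and Rarg values was not tested.

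The retinoid X receptors, obligate partners of the retinoic acid receptors and of many other nuclear receptors, varied less. Rxra measured 11.3 and 9.29 CPM in the caput libraries, 10.5 and 8.67 in the corpus libraries, and 22.3 and 25.4 in the cauda libraries. Caput and corpus overlapped, and cauda lay above both. Rxra was 2.31-fold higher in cauda than in caput (-1.21 ± 0.16, adjusted p = 0.000129) and 2.49-fold higher than in corpus (-1.31 ± 0.17, adjusted p = 0.000285), and caput did not differ detectably from corpus (0.10 ± 0.17, adjusted p = 0.607, approximate 95% interval -0.43 to 0.64). The call between caput and cauda was lost under library totals (-0.35, adjusted p = 0.083).

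Rxrb was the steadiest of the 9 genes. It measured 33.1 and 26.6 CPM in the caput libraries, 39.5 and 29.9 in the corpus libraries, and 38.9 and 34.9 in the cauda libraries. Corpus overlapped both other regions. No comparison of Rxrb was called (caput against cauda -0.31 ± 0.16, adjusted p = 0.117, approximate 95% interval -0.81 to 0.20), nor was the test of all regions together (adjusted p = 0.228), which called 75.1% of tested genes, although library totals turned the value for caput against cauda to 0.55 (adjusted p = 0.0123) and leaving out caput 1 called it at -0.47 (adjusted p = 0.0373). Per length, Rxrb held 80.4% ± 0.35 of the retinoid X receptor sum in caput, 83.6% ± 0.78 in corpus and 68.6% ± 3.61 in cauda. Rxrg had 1 read in caput 2 and none in the remaining libraries.

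**Figure D4:**
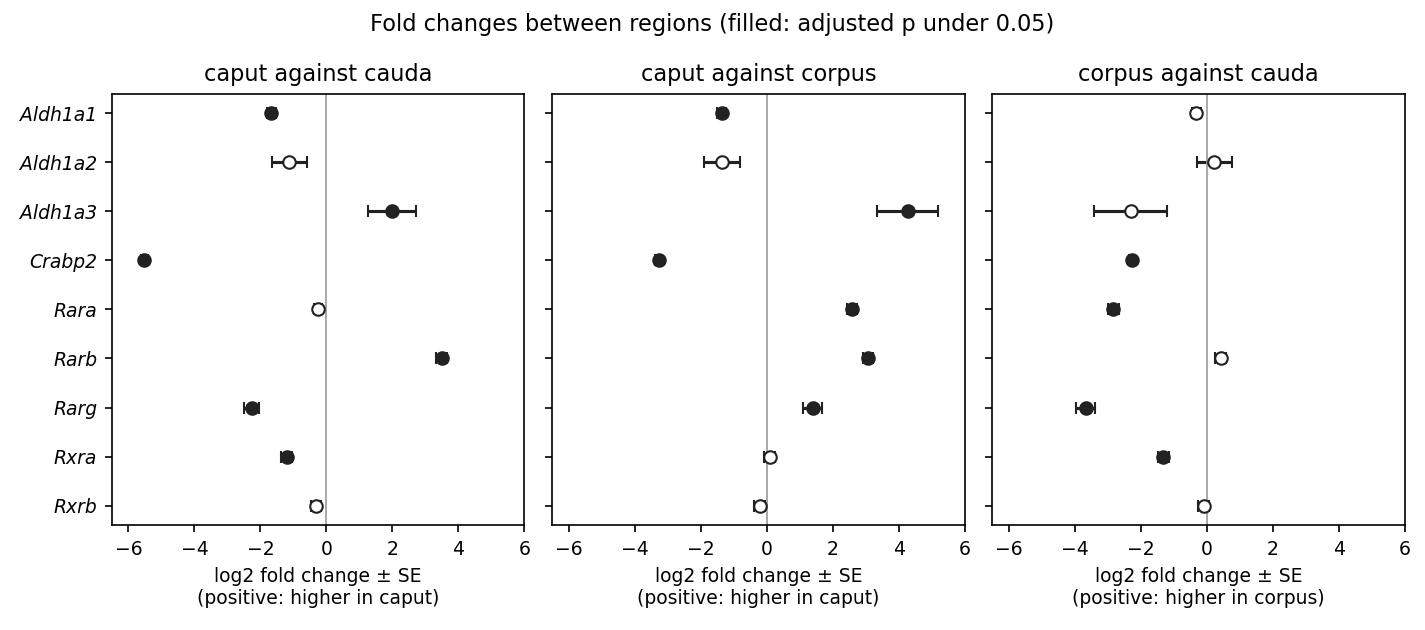
Log2 fold changes of the 9 genes ± SE in the 3 comparisons between regions, positive where the first region is higher, with filled symbols for adjusted p under 0.05. Crabp2 and Rarb lie at opposite sides between caput and cauda (-5.52 and 3.49), and Rara and Rarg lie to the right for caput against corpus and to the left for corpus against cauda.

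The 9 profiles were compared by the root mean square difference of their log2 CPM, each centred on its own mean over the 6 libraries. The nearest pair was Rxra and Rxrb at 0.52, followed by Aldh1a1 and Aldh1a2 at 0.57, while Rarb and Crabp2 were the farthest apart at 3.76. Genes that change little lie close on this measure whatever their pattern. A profile equal in all libraries would lie 0.61 from Rxra, 0.20 from Rxrb, 0.73 from Aldh1a1 and 0.87 from Aldh1a2. Rara and Rarg, which share the low corpus level, were 0.84 apart, and Rarb was 1.64 from Rara and 2.39 from Rarg. Among 13152 tested genes, predicted and clone-named ones left out, the profile nearest to Crabp2 was that of the lipocalin gene Lcn12 (0.12), which averaged 34.5 CPM in caput, rose to 285 in corpus and reached 1400 in cauda, and next came Cbs, which encodes cystathionine beta-synthase (0.13). Nearest to Rarb were the laminin gene Lama5 (0.08) and the interleukin 13 receptor gene Il13ra1 (0.08), and 496 genes lay within 0.5 of it. Nearest to Rara were Man2a1, a Golgi mannosidase gene (0.15), and Pion (0.17), with 83 genes within 0.5. Nearest to Rarg were S100b (0.21) and Fbp1 (0.24), nearest to Rxra Sorbs2 (0.11) and Zfp161 (0.12), and nearest to Rxrb Capn10 (0.06) and Hnrnpl (0.06), a profile shared within 0.5 by 5850 genes. Nearest to Aldh1a1 were Fam174a (0.08) and St7 (0.08), nearest to Aldh1a2 Zc3h12b (0.14) and Pcdh17 (0.21), and nearest to Aldh1a3 Krt79 (0.23) and Cldn2 (0.27).

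Genes that bring retinol into the cell and oxidise it showed several regional patterns. Of 29 listed symbols, 28 were in the table and 21 were tested. Bco1, the missing symbol, names the same gene as Bcmo1, which is also listed. Of the 21, 3 were called rising at both steps and 5 lowest in corpus, beside 6.87% and 6.10% of all tested genes. Another pattern, highest in caput, was called for 5 (26.8% of all tested genes), of which Lrat and Dhrs3 were also lowest in corpus. Between caput and cauda 6 were called higher in caput and 7 higher in cauda, where 33.9% and 33.0% of all tested genes were. Between caput and corpus 9 were called higher in caput and 6 higher in corpus, beside 33.2% and 31.8% of all tested genes. Between corpus and cauda 1 was called higher in corpus and 8 higher in cauda, beside 17.3% and 18.0%. Their median log2 fold changes were 0.20, 0.28 and -0.09. The counts between caput and cauda are close to the shares over all genes.

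Lrp2, which encodes megalin, an endocytic receptor that takes up retinol-binding protein, measured 22.2 and 18.2 CPM in the caput libraries, 128 and 126 in the corpus libraries, and 351 and 361 in the cauda libraries (-4.14 ± 0.11 for caput against cauda, adjusted p = 5.08e-09). Adh1, an alcohol dehydrogenase that oxidises retinol, measured 75.3 and 96.2 CPM in the caput libraries, 272 and 242 in the corpus libraries, and 815 and 828 in the cauda libraries (-3.26 ± 0.13, adjusted p = 6.18e-08). Adh5, the widely expressed class III enzyme, measured 288 and 295 CPM in the caput libraries, 1160 and 1300 in the corpus libraries, and 2410 and 2540 in the cauda libraries (-3.08 ± 0.09, adjusted p = 9.17e-09). These 3 rose at both steps, as Crabp2 did, and their libraries did not overlap between regions.

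Dhrs3, which reduces retinaldehyde back to retinol, measured 67.5 and 72.9 CPM in the caput libraries, 11.1 and 9.48 in the corpus libraries, and 48.1 and 51.7 in the cauda libraries. Its corpus libraries lay below all others.

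Lrat, which esterifies retinol for storage, measured 7.27 and 13.0 CPM in the caput libraries, 0.784 and 0.557 in the corpus libraries, and 5.76 and 4.74 in the cauda libraries. Rdh10, a main retinol dehydrogenase in the embryo, measured 5.16 and 5.91 CPM in the caput libraries, 2.63 and 2.23 in the corpus libraries, and 10.2 and 8.40 in the cauda libraries, and Stra6, the cell surface receptor for retinol-binding protein, 0.733 and 2.15, 0.112 and 0.253, and 2.27 and 1.58. Stra6, Lrat, Rdh10 and Dhrs3 were each called lower in corpus than in both other regions, as were Rara and Rarg, a pattern held by 6.10% of all tested genes.

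Corpus was lower than caput by 2.77 ± 0.12 for Dhrs3 (adjusted p = 9.57e-08), 3.91 ± 0.38 for Lrat (adjusted p = 1.46e-05), 1.19 ± 0.23 for Rdh10 (adjusted p = 0.00161) and 2.92 ± 0.72 for Stra6 (adjusted p = 0.00592). Without corpus 1 both Stra6 calls were lost, that against caput at 2.47 (adjusted p = 0.0573) and that against cauda at -2.89 (adjusted p = 0.0658). Between the ends of the duct, Lrat was higher in caput by 0.95 ± 0.30 (adjusted p = 0.0194), and this was no longer called without caput 2, cauda 1 or cauda 2 (adjusted p = 0.178, 0.059 and 0.129). Rdh10 was lower in caput than in cauda (-0.75 ± 0.22, adjusted p = 0.0122), a call lost without caput 1 (0.0513) or cauda 1 (0.112) and turned to 0.11 under library totals. Rbp4, which carries retinol in blood, was low throughout, at 0.469 and 0.990 CPM in the caput libraries, 2.46 and 2.38 in the corpus libraries, and 1.11 and 0.927 in the cauda libraries. Corpus exceeded caput for Rbp4 (-1.73 ± 0.46 for caput against corpus, adjusted p = 0.00851), and its difference from cauda was not called (adjusted p = 0.0653) except without caput 1 or caput 2 (adjusted p = 0.0245 and 0.0268) and under some other settings.

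**Figure D5:**
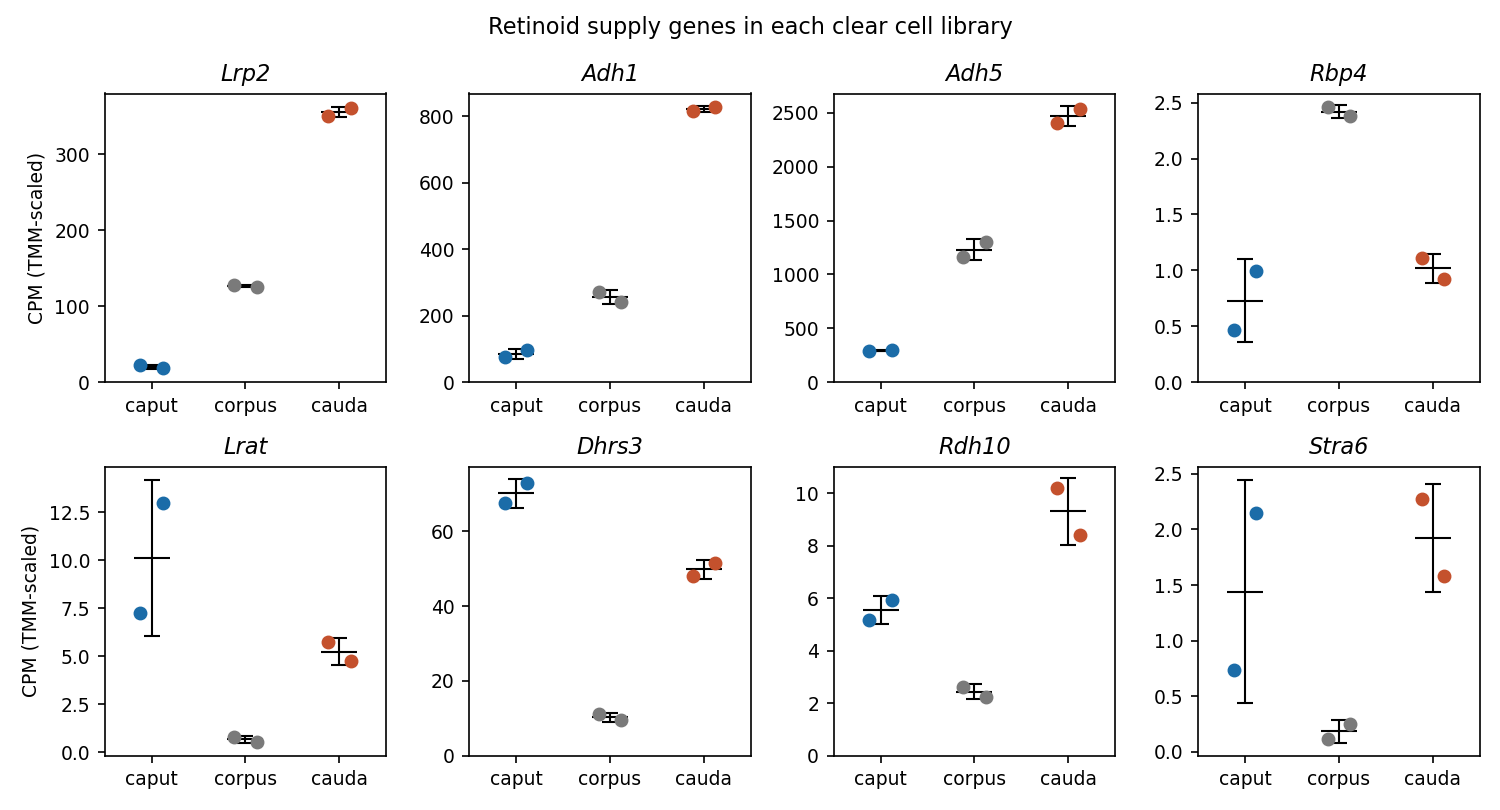
CPM of 8 retinoid supply genes in each library (vertical axes in TMM-scaled CPM), with points for libraries, bars for means and whiskers for the SD of 2 libraries. Lrp2, Adh1 and Adh5 climb from caput to cauda, whereas Lrat, Dhrs3, Rdh10 and Stra6 are lowest in corpus and Rbp4 is highest there at 2.42 CPM.

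Enzymes that clear retinoic acid were close to absent. Cyp26b1 had 3 and 3 reads in the caput libraries, 8 and 7 in the corpus libraries, and 1 and 1 in the cauda libraries, and Cyp26c1 had 2 reads over all libraries. With Cyp26a1, all 3 Cyp26 genes missed the filter. Aldh8a1, a dehydrogenase that acts on 9-cis-retinaldehyde, was called higher in corpus than in caput (-3.36 ± 0.33, adjusted p = 1.74e-05) and than in cauda (3.33 ± 0.35, adjusted p = 8.14e-05). It was named after its values were seen.

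Genes known to be induced by retinoic acid moved in both directions. Of 23 listed, 17 were tested. Against cauda 4 were called higher and 7 lower in caput, beside 33.9% and 33.0% of all tested genes. Against corpus 7 were called higher and 4 lower in caput, beside 33.2% and 31.8%, and 1 was higher and 8 were lower in corpus than in cauda, beside 17.3% and 18.0%. The medians were -0.51, 0.25 and -0.61. The list shares genes such as Dhrs3, Lrat and Stra6 with the supply list and Ppard with the carriers. Bhlhe40, a transcriptional repressor, was higher in caput than in cauda (1.90 ± 0.13, adjusted p = 2.61e-06) and than in corpus (2.22 ± 0.13, adjusted p = 1.33e-06), and so was Tgm2, the tissue transglutaminase (1.82 ± 0.22 and 1.71 ± 0.22, adjusted p = 5.85e-05 and 9.10e-05), in the region where Rarb was highest.

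Partners and coregulators of the receptors were counted beside all tested genes, of which 33.9% were higher and 33.0% lower in caput than in cauda, and 33.2% higher and 31.8% lower in caput than in corpus. Of 12 listed partners of the retinoid X receptors, 8 were tested, and 5 were called higher and 1 lower in caput, against cauda and against corpus alike. The thyroid hormone receptor genes Thra and Thrb were higher in caput than in cauda by 1.77 ± 0.15 and 2.16 ± 0.23 (adjusted p = 6.00e-06 and 2.64e-05), and Nr4a1, an orphan receptor that responds quickly to stimulation, by 2.96 ± 0.22 (adjusted p = 3.59e-05). Nr4a2 was lower in caput than in cauda (-1.22 ± 0.19, adjusted p = 0.000303), which was not called under library totals (-0.36, adjusted p = 0.109). All 16 coregulators were tested, of which 10 were called higher and 1 lower in caput, against cauda and against corpus alike, with medians of 0.41 and 0.44. Tbl1xr1, of a corepressor complex, was higher in caput than in cauda by 1.62 ± 0.21, and the coactivators Carm1 and Ncoa3 by 1.46 ± 0.14 and 1.22 ± 0.14 (adjusted p at most 9.46e-05). Clear cell markers were higher in caput as well (13 of 13 tested against cauda), and their part in these counts was not tested.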

How the data were processed

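RNA of sorted clear cells was sequenced in 6 libraries on a HiSeq2500 after SMARTer amplification, per the labels' protocols. The submitters' processing notes name STAR, HTSeq, edgeR and the build mm9; no versions and no annotation are given there. The authors deposited a count of reads per gene for each library, made without strand per the file names, and a table of RPKM with gene lengths. Dividing count by length and deposited RPKM showed that the authors also scaled each library, by 0.774 to 1.39. Rows that name no gene (43.6% to 49.5% of records) stayed out, as did Ces5a, which has 2 rows.

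Tests used edgeR 4.0.16 in R 4.3.3 (filterByExpr, TMM, robust quasi-likelihood) with all libraries and region alone in the model, giving 3 residual degrees of freedom. An SE was derived from the fold change and the F statistic, and 95% intervals from that SE on 3 degrees of freedom, so both are approximate. The test itself also draws on the spread of other genes, so these intervals can be wider than its p-values imply. For Aldh1a3 between caput and cauda the interval was -0.30 to 4.26 although the difference was called. The test was also run on simulated data with changes in few genes and in caput alone. The real libraries differ in most genes, so that run does not check the scaling. Log2 CPM used a prior count of 2. Alternatives used DESeq2 1.42.0 and limma 3.58.1. Counting intervals (95%, exact) cover counting error only. Between libraries of 1 region, counts differed beyond sampling noise (chi-square per degree of freedom 9.57 to 17.2). Whether the pools of a region came from separate mice is not labelled, and p-values therefore reflect the spread among these libraries, which may be technical.

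Promoter windows are from RefSeq (GRCm38.p6); exon overlaps and shared words are from GENCODE M21, also GRCm38 and not the authors' build. Members and gene lists were chosen with earlier results of these data known. All 9 members were named, with up to 4 called genes per list that had the largest change between caput and cauda and at least 5 CPM, and a fixed set of retinoid and marker genes. Some genes that this rule gives are not reported here.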

Additional observations from a re-analysis of the deposited data

How the results depend on the processing

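The 27 fold changes of the 9 genes were recomputed under 15 alternatives, which gave 404 values, of which 381 kept their direction and their side of the threshold. Scaling by library totals, which shifts the median of all genes by 0.86 between caput and cauda and 0.59 between caput and corpus, reversed Rara and Rxrb between caput and cauda (0.61 and 0.55), Rdh10 in the same comparison (0.11) and Nr4a2 between caput and corpus (0.05). Removing the gene length trend called Rara and Rxrb between caput and cauda (-0.53 and -0.49) and ended the Aldh1a3 call (1.70, adjusted p = 0.0656), as did DESeq2 (adjusted p = 0.121); the cause was not tested. DESeq2 called Aldh1a2 between caput and corpus (-1.33, adjusted p = 0.044). With 1 library left out, the median log2 fold change of the 9 genes ran from -1.12 to -0.47 between caput and cauda. It ran from -0.04 to 0.24 between caput and corpus and from -1.42 to -1.18 between corpus and cauda. Over all tested genes these medians ran from 0.03 to 0.09 and from 0.02 to 0.07, and stayed at 0 for corpus against cauda. For 22 further genes of the pathway lists, 944 of 990 values kept direction and side. Depth limits Aldh1a3, which had at most 5 reads per library outside caput.

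Libraries of all regions are numbered 1 and 2, but no label ties equal numbers to shared mice or days. Deviations of equal numbers correlated at 0.13 to 0.19 over 15816 genes, and with 2 numbers this was not taken as a pairing. With a replicate block 8, 7 and 5 of the 9 genes were called in the 3 comparisons, beside 10850, 10633 and 6090 of 15816 tested genes. In the test of all regions together 12187 of the 15816 were called. The calls gained were Rxrb between caput and cauda (-0.31, adjusted p = 0.0199), Aldh1a2 between caput and cauda (-1.27, adjusted p = 0.0267) and between caput and corpus (-1.46, adjusted p = 0.0143), and Aldh1a1 between corpus and cauda (-0.31, adjusted p = 0.0242).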
